A study of Mus musculus with 4 samples.

Results

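The genes described here make cholesterol, sense its level and move or esterify it inside the cell. They were chosen by name, as 27 mouse genes of the mevalonate and sterol pathway and of the machinery that controls the transcription factor SREBP2, and every probe set annotated to exactly 1 of these symbols was used. This gave 57 probe sets for 25 of the 27 genes, out of 34945 probe sets for 18193 genes on the array. Acat2, which makes acetoacetyl-CoA, and Soat1, which esterifies cholesterol, had no such probe set and were not analysed here. A signal of 28.9, the median over all arrays, served as the floor for low values, and 49 of the 57 probe sets lay at or above it on all 4 arrays and 6 below it on all 4. Each gene was represented by its brightest probe set, and for all 25 genes this one reached the floor on all 4 arrays. Of the 25 genes, 17 had several probe sets and 8 had 1.

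Cells make cholesterol from acetyl-CoA by way of mevalonate, isoprenoid diphosphates, squalene and lanosterol, and side branches use the isoprenoids to anchor proteins to membranes. SREBP2, encoded by Srebf2, is held in the endoplasmic reticulum by SCAP and the INSIG proteins while sterol is plentiful. When sterol falls, SCAP carries it to the Golgi, where the proteases encoded by Mbtps1 and Mbtps2 release the active factor, which switches on most genes of the pathway and Insig1. The liver X receptors (LXRs) answer to oxysterols, so they act at high sterol, and are best known for switching on cholesterol export and the gene Srebf1.

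RNA came from dendritic cells (DCs) grown from mouse bone marrow with GM-CSF at 20 ng/mL and enriched on beads for the integrin CD11c. All mice were labelled C57/BL6, and were either wild type (WT) or lacked both LXRα and LXRβ (LXR-DKO). Cells of each genotype were then cultured for another 24 h, with GM-CSF reduced to 10 ng/mL in every group, and the treated cultures also received 100 ng/mL of lipopolysaccharide (LPS), a bacterial product sensed by Toll-like receptor 4. The 4 groups were therefore WT control, WT LPS, LXR-DKO control and LXR-DKO LPS, with 1 single-colour array each. There are no replicates, so differences between arrays carry no test, and the number of mice behind a culture, their age and their sex were not stated. The series title places the study in DC chemotaxis, and the comparisons below ask how the sterol genes stood with LPS and without LXRs.

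Signals had a common trimmed mean on all arrays, and the share of probe sets at or above the floor lay between 47.8% and 52.6%. The targeted gene Nr1h3, which encodes LXRα, had signals of 108.6 and 54.5 in WT cells (first without and then with LPS, as throughout) and of 40.4 and 27 in LXR-DKO cells, and whether its probe set lies in the deleted part is not known here. Of the DC markers, the CD11c gene Itgax had signals between 3848.1 and 6093.0 and Cd74, the class II invariant chain, between 7438.2 and 10329.7, whereas the DC growth factor receptor gene Flt3 was below the floor on all arrays but LXR-DKO LPS and the DC factor gene Zbtb46 had 39.4 and 29.0 in WT and 305.9 and 393.3 in LXR-DKO. The 3′ to 5′ signal ratio of the control probe sets, a sign of RNA integrity, lay between 0.757 and 0.842 for Gapdh and between 1.11 and 1.28 for Actb. How far probe sets of one gene differ in their log2 ratio is the error available. Pooled over all genes, this SD was 0.29 for the WT response to LPS and 0.42 for the LXR-DKO response, and 0.45 and 0.54 for LXR-DKO over WT in control and LPS cultures. Among the members it was 0.26, 0.32, 0.31 and 0.41 over 14 genes. It covers differences within arrays and not between cultures.

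The members most often had their highest signal in LXR-DKO control and their lowest in WT LPS. LXR-DKO control was the highest array for 18 of the 25 genes, WT LPS was the lowest for 17, and both held for 15. Among the 9623 genes of the array that reached the floor everywhere, LXR-DKO control was highest for 29.8%, WT LPS was lowest for 36.4%, and both held for 21.4%. LXR-DKO LPS was above WT control for 13 members, a share close to the 52.9% of those genes. The early mevalonate enzymes other than Pmvk, the squalene and lanosterol enzymes and the sterol carrier gene Stard4 had these extremes. Between the extremes, LXR-DKO LPS was above WT control for 10 of the 15, and below it for Mvk, Sqle, Lss, Cyp51 and Dhcr7. The 5 members higher in WT control than in LXR-DKO control were the enzyme genes Ggps1, Hsd17b7 and Ebp and the control genes Insig2 and Mbtps2, although Hsd17b7 was level at 0.0014 under hybridisation control scaling.

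**Figure D1:**
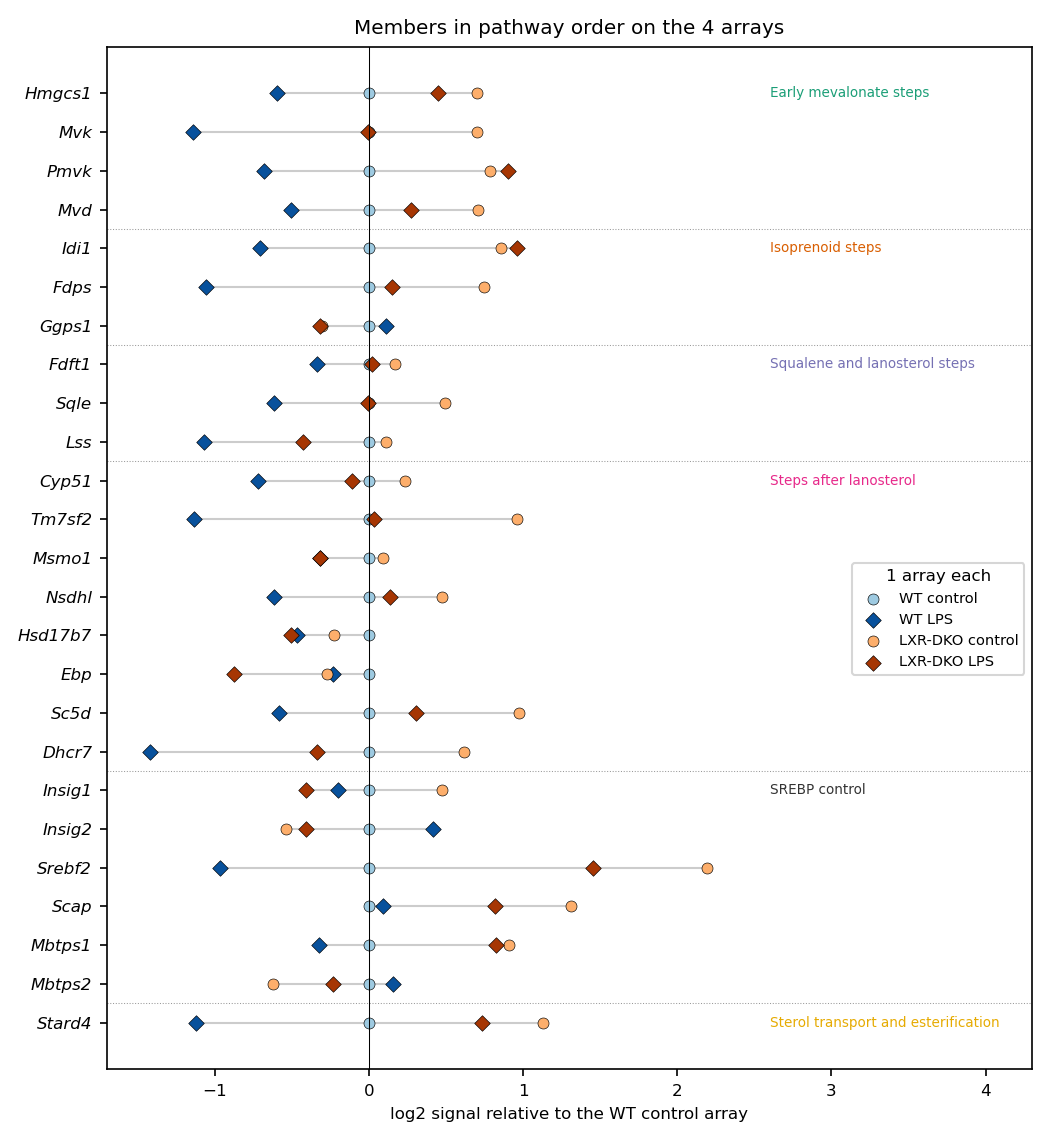
Signal of each of the 25 represented members on the 4 arrays, as log2 of the ratio to WT control, in pathway order from top to bottom. Circles are control cultures and diamonds LPS cultures, with 1 array per point and no error bars; the lowest point is WT LPS for 17 genes and the highest is LXR-DKO control for 18, with Srebf2 farthest out at 2.19.

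Promoter windows from RefSeq on the assembly GRCm38.p6, each of 250 bases before to 50 bases after a gene's start, were found for 23 of the 27 genes. They were searched on both strands for TCACNCCA and CACNCCAC, which are overlapping parts of the sterol element bound by SREBPs, for the CCAAT box bound by NF-Y, and for GGGCGG, bound by Sp1, motifs whose spelling was settled after the sequences were seen. At least 1 window held CCAAT for 19 of the 23 members, or 82.6%, against 42.6% of the 10093 genes measured on these arrays that have a window. GGGCGG was found for 20 members, or 87.0%, against 66.4% of those genes. TCACNCCA was found for Hmgcs1, Msmo1 and Srebf2 (13% against 4.64%), and CACNCCAC for Acat2, Hmgcs1 and Insig1 (13% against 7.88%). A match is only a description of letters in the window. The 6 windows below are given because these genes carry the contrasts that follow: Hmgcs1 and Idi1 for the enzymes that were higher in LXR-DKO, Srebf2 for the largest genotype difference, Insig1 and Insig2 for opposite differences in a gene pair, and Ggps1 for a branch enzyme that was not higher. They lie at chr13:119690101-119690400 on the plus strand, chr13:8885356-8885655 on the plus strand, chr15:82147019-82147318 on the plus strand, chr5:28071162-28071461 on the plus strand, chr1:121332540-121332839 on the minus strand and chr13:14063439-14063738 on the minus strand. They are written along the gene from 5′ to 3′, and capitals mark TCACNCCA, CACNCCAC and CCAAT on either strand, so that ATTGG is a CCAAT box read from the other strand.
Hmgcs1: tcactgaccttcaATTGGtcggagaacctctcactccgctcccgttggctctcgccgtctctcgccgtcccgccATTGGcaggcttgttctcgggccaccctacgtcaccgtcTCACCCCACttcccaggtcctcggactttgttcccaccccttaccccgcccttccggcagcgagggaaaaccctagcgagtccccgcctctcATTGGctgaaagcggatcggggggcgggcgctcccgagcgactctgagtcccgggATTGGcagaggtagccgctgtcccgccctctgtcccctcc
Idi1: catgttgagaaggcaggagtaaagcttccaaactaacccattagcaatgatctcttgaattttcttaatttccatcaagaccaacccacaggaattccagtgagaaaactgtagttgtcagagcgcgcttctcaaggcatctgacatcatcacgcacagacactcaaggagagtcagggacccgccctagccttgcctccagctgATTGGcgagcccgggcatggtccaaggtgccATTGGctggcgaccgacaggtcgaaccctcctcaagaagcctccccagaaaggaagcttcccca
Srebf2: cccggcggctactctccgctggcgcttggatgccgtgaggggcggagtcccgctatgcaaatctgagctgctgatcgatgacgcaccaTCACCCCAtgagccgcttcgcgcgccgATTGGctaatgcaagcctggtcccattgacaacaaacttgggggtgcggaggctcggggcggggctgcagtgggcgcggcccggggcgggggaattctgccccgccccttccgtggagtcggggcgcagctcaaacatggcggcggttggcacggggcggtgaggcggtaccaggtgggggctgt
Insig1: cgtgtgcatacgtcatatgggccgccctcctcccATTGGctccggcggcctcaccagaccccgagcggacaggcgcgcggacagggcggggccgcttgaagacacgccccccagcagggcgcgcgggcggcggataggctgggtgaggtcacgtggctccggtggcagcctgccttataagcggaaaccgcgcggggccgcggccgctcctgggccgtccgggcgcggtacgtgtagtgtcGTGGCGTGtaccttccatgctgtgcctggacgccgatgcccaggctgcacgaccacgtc
Insig2: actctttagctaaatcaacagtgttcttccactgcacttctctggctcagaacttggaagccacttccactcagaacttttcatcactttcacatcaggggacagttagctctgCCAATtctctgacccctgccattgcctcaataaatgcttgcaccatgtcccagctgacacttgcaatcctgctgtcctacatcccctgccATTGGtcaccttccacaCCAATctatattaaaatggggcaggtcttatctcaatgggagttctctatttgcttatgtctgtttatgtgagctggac
Ggps1: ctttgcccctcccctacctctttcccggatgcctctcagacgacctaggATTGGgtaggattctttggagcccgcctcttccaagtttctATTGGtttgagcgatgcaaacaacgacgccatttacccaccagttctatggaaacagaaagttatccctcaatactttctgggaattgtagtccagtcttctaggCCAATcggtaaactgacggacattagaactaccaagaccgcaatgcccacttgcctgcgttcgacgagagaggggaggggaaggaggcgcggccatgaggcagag
The Hmgcs1 window held 4 CCAAT boxes and a sterol element matching both spellings, the Srebf2 window 1 of each with TCACNCCA, and the Insig1 window 1 CCAAT box and CACNCCAC. The Idi1 window held 2 CCAAT boxes. Ggps1 and the outermost of the Insig2 windows, 2 genes without higher signals in LXR-DKO, held 3 CCAAT boxes each.

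With LPS in WT cells, 21 of the 25 members had a log2 ratio below 0, where 56.0% of the 11449 genes measured did (43.8% were above 0), and 6 were at least 2-fold lower, where 4.79% of genes were. Those 6 were Dhcr7, Mvk, Tm7sf2, Stard4, Lss and Fdps, and 0 members were 2-fold higher, where 2.93% of genes were. The median log2 ratio of the members was -0.60 and that of all genes -0.05. In LXR-DKO cells 21 of 25 members were again below 0, against 48.4% of 11793 genes with 51.5% above 0. There 0 were 2-fold lower, which is close to the 1.82% of genes, and Dhcr7 at -0.95 and Tm7sf2 at -0.93 fell just short. Of the members, 0 were 2-fold higher, against 6.23%. Their median there was -0.41 and that of all genes 0.018. Without LXRs and without LPS, 20 members were higher than in WT, against 52.6% of 11728 genes with 47.3% lower. Of the 25 members, 3 were past 2-fold, namely Srebf2, Scap and Stard4, a share close to the 12.7% of genes. With LPS, 18 members were higher in LXR-DKO, against 58.2% of 12014 genes with 41.7% lower, and 10 were at least 2-fold higher, which is 40.0% of the 25 members against 17.8% of genes. In both genotype comparisons 0 members were 2-fold lower, against 9.28% and 8.76% of genes. The comparisons share arrays, so that a low WT LPS signal enters both the WT response and the genotype difference with LPS. The genotype medians were 0.62 without and 0.75 with LPS, and those of all genes 0.045 and 0.15.

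These counts depend on how the arrays are scaled to each other. With the 75th percentile of every array set equal, 2 members instead of 6 were 2-fold lower with LPS in WT and 4 instead of 10 were 2-fold higher in LXR-DKO with LPS. Scaling also moved the median of all genes, for the genotype difference with LPS from 0.15 to -0.11 at the same 75th percentile and to 0.43 under scaling to the hybridisation controls. The distance of the members from the median of all genes moved less. Over the 10 settings it was -0.56 to -0.53 for LPS in WT, with -0.54 as deposited, and -0.46 to -0.38 in LXR-DKO, with -0.43. For LXR-DKO over WT it was 0.57 without LPS, with 0.44 to 0.63, and 0.60 with LPS, with 0.57 to 0.74. Of all genes 2-fold apart, those higher made up 38.0% for LPS in WT, and for LXR-DKO over WT 57.7% in control and 67.0% in LPS cultures, but 50.6%, 44.1% and 47.1% at the same 75th percentile. Under hybridisation control scaling the latter 2 shares were 72.8% and 83.3%, and after quantile normalization the last was 55.4%.

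**Figure D2:**
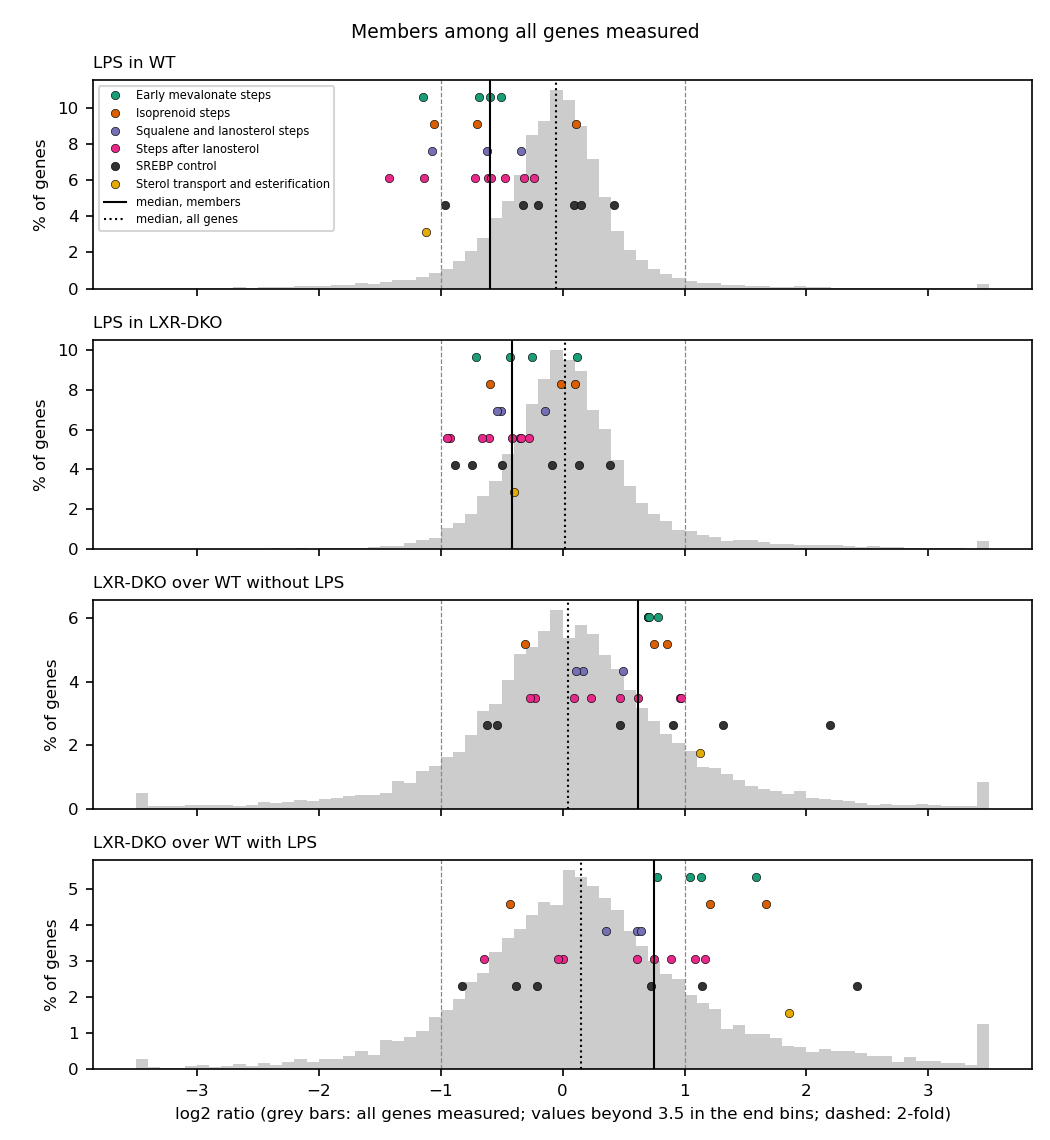
Percent of all measured genes by log2 ratio (grey bars) in 4 comparisons, with each member as a point coloured by its role; the height of a point only separates the roles. The solid line is the median of the members and the dotted line that of all genes, at -0.60 and -0.05 for LPS in WT and at 0.75 and 0.15 for LXR-DKO over WT with LPS.

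The early mevalonate enzymes were lower with LPS in WT and higher without LXRs. Hmgcs1, the synthase that joins acetyl-CoA to acetoacetyl-CoA, had signals of 2833 and 1871 in WT cells and of 4597.1 and 3870.5 in LXR-DKO cells. Both LXR-DKO arrays were above both WT arrays, and LXR-DKO exceeded WT by 0.70 without and 1.05 with LPS on the log2 scale. Its 5 probe sets that reached the floor on every array spanned 0.60 to 1.13 without and 0.64 to 1.06 with LPS, and -0.76 to -0.43 for the LPS response in WT. Mvk, the kinase that adds the first phosphate to mevalonate, stood at 223.3, 101.2, 363.2 and 222.2 in the same order, WT before LXR-DKO and control before LPS. It was 2.21-fold lower with LPS in WT and 1.63-fold lower in LXR-DKO, and LXR-DKO LPS was at the level of WT control. With a floor of 177.4, above its WT LPS signal, the ratio in WT was -0.33 and the genotype difference with LPS 0.32. Pmvk, the next kinase, had 318.1, 198.1, 548.2 and 593.9. It was lower with LPS in WT at -0.68 but not in LXR-DKO at 0.12, and with LPS its genotype difference was 3.0-fold. Mvd, the decarboxylase that makes isopentenyl diphosphate, had 494, 348.3, 807.4 and 597.1, with similar LPS ratios of -0.50 and -0.44 and similar genotype differences of 0.71 and 0.78 without and with LPS.

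The isoprenoid enzymes split at the branch point. Idi1, the isomerase of isopentenyl diphosphate, had signals of 1558.8 and 956 in WT cells and of 2828.7 and 3030.8 in LXR-DKO cells. The LXR-DKO arrays lay above both WT arrays, with a 3.17-fold difference with LPS, and the other probe set gave a log2 ratio of 1.80 against 1.66 here. The LPS ratio was -0.71 in WT and 0.10 in LXR-DKO. Fdps, which makes farnesyl diphosphate on the way to sterols, had 2659.4, 1278.6, 4461.8 and 2954.4. It was 2.08-fold lower with LPS in WT, and LXR-DKO LPS was above WT control. Ggps1, which makes geranylgeranyl diphosphate for protein prenylation, had 175.4, 189.6, 142 and 140.8. It was lower in LXR-DKO at -0.30 and -0.43, within the spread between probe sets of all genes, and all 4 of its probe sets were below 0 in both genotype comparisons, from -0.69 to -0.11.

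The squalene and lanosterol enzymes were lower with LPS in both genotypes, and the size of their genotype difference depended on the probe set. Fdft1, squalene synthase, had signals of 1505.2, 1190.9, 1689.7 and 1526.6 in that order. Its 2 probe sets above the floor disagreed on size, with genotype differences of 0.17 and 0.79 without LPS and of 0.36 and 0.90 with LPS, and under scaling to the same 75th percentile the former of these 4 was -0.02. Sqle, squalene epoxidase, had 1873.2, 1221.2, 2643.3 and 1863.7, a difference between genotypes of 0.50 without and 0.61 with LPS on its only probe set. LXR-DKO LPS and WT control were nearly level for this gene. Lss, which closes the sterol rings to give lanosterol, had 537.3, 256.2, 580.1 and 400.3. With LPS it was 2.10-fold lower in WT, but its dimmer probe set, with signals of 77.2 and 54, gave only -0.52 on the log2 scale against -1.07. Without LPS the genotype difference of Lss was 0.11 on the brightest probe set, -0.08 under scaling to the same 75th percentile, and 0.74 on the dimmer one. With LPS it was 0.64 and 1.04 on the same probe sets.

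Among the 8 enzymes after lanosterol, all 8 were lower with LPS in both genotypes on their brightest probe sets, while genotype differences went both ways. Cyp51, the demethylase that acts on lanosterol, had signals of 1500.5 and 912.2 in WT cells and of 1768.2 and 1389.5 in LXR-DKO cells, with a genotype difference of 0.24 without and 0.61 with LPS. Its dimmest probe set went the other way at -0.06 and -0.30. Tm7sf2, the reductase that follows, had 310.6, 141.5, 604.5 and 317.8, so it was 2.20-fold lower with LPS in WT and 1.90-fold lower in LXR-DKO. LXR-DKO was above WT by 0.96 and 1.17 on the log2 scale. Msmo1, which oxidises a methyl group of the sterol, had 2327.1, 1865.7, 2480.8 and 1865.1, with both LPS arrays level as deposited. Across scalings the genotype difference of Msmo1 with LPS ran from -0.30 at the same 75th percentile to 0.32 under hybridisation control scaling. Nsdhl, which removes the oxidised group, had 931.2, 609, 1293.4 and 1023.6, a genotype difference of 0.47 and 0.75. It stands on the X chromosome, as do Ebp and Mbtps2.

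The remaining enzymes held the largest LPS difference, and also Hsd17b7 and Ebp, which were higher in WT control than in LXR-DKO control. Hsd17b7, which reduces the ketone left by Nsdhl, had signals of 452.8, 327.2, 386.5 and 319.5 from WT control to LXR-DKO LPS. Its 3 probe sets above the floor agreed for LPS in WT, from -0.62 to -0.36, but spanned -0.96 to 0.07 for LPS in LXR-DKO and -0.72 to 0.49 for LXR-DKO over WT with LPS, so no direction can be given there. Ebp, the isomerase that shifts a ring double bond, had 2204.9, 1878.4, 1827.1 and 1201.7. It was highest in WT control, and lower in LXR-DKO by 0.27 and 0.64 on the log2 scale without and with LPS. The difference without LPS was within the spread of 0.45 between probe sets of all genes. Over the settings it ran from -0.46 to -0.04, and Ebp had only 1 probe set. Sc5d, a desaturase, had 1170.8, 781, 2298.1 and 1450.2, and all 3 of its probe sets were higher in LXR-DKO, from 0.97 to 1.95 without and from 0.66 to 2.20 with LPS. Dhcr7, which makes cholesterol from its last precursor in one of the 2 final routes, had 449.5, 167.8, 688.8 and 356.4. With LPS it was 2.68-fold lower in WT, the largest LPS difference among the members, and 1.93-fold lower in LXR-DKO.

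The SREBP control genes differed in both directions. Srebf2 had signals of 385.1 and 197.3 in WT cells and of 1762.6 and 1052.9 in LXR-DKO cells. The lower LXR-DKO array was 2.73-fold above the higher WT array, and LXR-DKO was 4.58-fold higher without and 5.34-fold higher with LPS, the largest genotype differences among the members' brightest probe sets. Its second probe set gave log2 ratios of 2.20 without and 1.67 with LPS, against 2.19 and 2.42. The LPS ratio was -0.96 in WT and -0.74 in LXR-DKO, but -0.39 and -0.93 on the second probe set, so which genotype had the larger LPS difference depends on the probe set. The gene also holds, within its span on GRCm38.p6, the miRNA gene Mir33, whose product represses cholesterol exporters and was not measured here. Its sequence, with bases 2 to 8, the seed that pairs with targets, in capitals, is as follows.
mmu-miR-33-5p: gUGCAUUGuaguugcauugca
Srebf1, the LXR target that drives fatty acid genes and is named here for comparison after its values were seen, had 311.6, 283.2, 941.7 and 724.6. It too was higher in LXR-DKO, by 1.60 and 1.36 on the log2 scale, which is less than Srebf2 in both conditions.

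The escort gene Scap and the proteases differed from one another. Scap had signals of 287.3 and 306.6 in WT cells and of 714 and 505.8 in LXR-DKO cells, so both LXR-DKO arrays were above both WT arrays. It was 2.48-fold higher in LXR-DKO without LPS and 1.65-fold higher with LPS. Mbtps1, which makes the first cut in SREBP, had 459.6, 367.4, 862 and 813.3, with genotype differences of 0.91 and 1.15. The second probe set of Mbtps1 above the floor gave 1.63 and 1.39, but a larger LPS ratio, -1.0 in WT and -1.24 in LXR-DKO against -0.32 and -0.08. Mbtps2, which makes the second cut, had 647.3, 720.1, 420.6 and 551.9 and was lower in LXR-DKO at -0.62 and -0.38 on the log2 scale. The value of Mbtps2 with LPS was within the spread of 0.54 between probe sets of all genes, and ran from -0.68 to -0.07 over the settings. The brightest probe sets of the 2 proteases thus stood on opposite sides of WT, for Mbtps2 with LPS by a small margin.

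The 2 INSIG genes, whose products retain SCAP, went opposite ways in the absence of LPS. Insig1, itself an SREBP target, had signals of 379.4 and 329.8 in WT cells and of 526 and 285.9 in LXR-DKO cells. It was higher in LXR-DKO without LPS at 0.47 and lower with LPS at -0.21, although hybridisation control scaling turned the latter to 0.11. Its LPS ratio was -0.20 in WT and -0.88 in LXR-DKO. Insig2, which is not driven by SREBPs in the same way, had 540.1, 722.1, 371.9 and 407.5. All 3 of its probe sets were higher with LPS in WT, from 0.42 to 0.52, and in LXR-DKO, from 0.13 to 0.91. All 3 were also lower in LXR-DKO, from -1.26 to -0.54 without and from -1.11 to -0.61 with LPS. Insig2, Mbtps2 and Ggps1 were the members that were higher with LPS in WT and lower in LXR-DKO in both conditions, but the LPS ratio of Ggps1 was -0.0079 under hybridisation control scaling.

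Stard4, a cytosolic sterol carrier and SREBP target, had signals of 742.4 and 341.1 in WT cells and of 1622 and 1233.2 in LXR-DKO cells. It was 2.18-fold lower with LPS in WT and 1.32-fold lower in LXR-DKO. Over its 3 probe sets the log2 LPS ratio ran from -1.23 to -0.90 in WT and from -0.97 to -0.09 in LXR-DKO. The size of the LPS difference in LXR-DKO therefore depends on the probe set. The genotype difference was 2.18-fold without and 3.62-fold with LPS. Its 3 probe sets agreed on direction and spanned 0.20 to 1.13 without and 1.01 to 1.85 with LPS. The first of these ranges is wide enough that the size without LPS depends on the probe set.

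**Figure D3:**
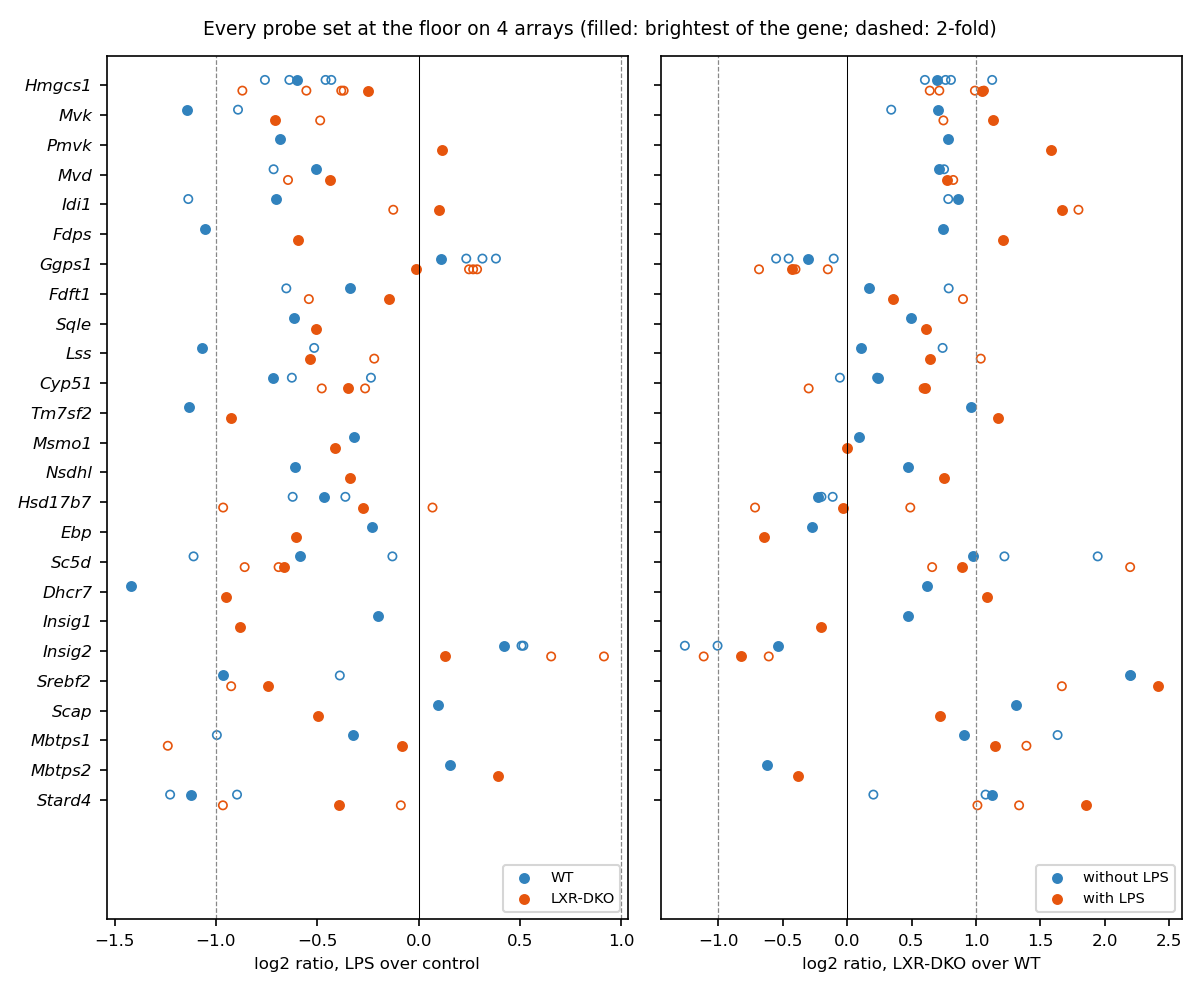
Log2 ratios of every member probe set that reached the floor on each of the 4 arrays, for LPS over control in each genotype (left) and for the genotype difference in control and LPS cultures (right). Filled points are the brightest probe set of a gene and open points the others; Insig2 lies below 0 in all 6 of its points on the right, whereas Hsd17b7 with LPS lies on both sides.

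The log2 LPS ratio was higher, in most cases less negative, in LXR-DKO than in WT for 18 of the 25 members, against 58.0% of 12478 genes with 41.8% below 0. The median difference of the responses was 0.22, and 0.083 over all genes. For 0 members did the difference reach 2-fold, in either direction, against 7.61% of genes above and 2.07% below, and of the genes past it 78.6% were above, or 68.6% after quantile normalization. On the brightest probe sets, Idi1 and Pmvk had the largest differences, both at 0.80, followed by Stard4 at 0.73 and Lss at 0.53. On the other side stood Insig1 at -0.68, Scap at -0.59 and Ebp at -0.37. The pooled spread between probe sets for this difference was 0.43, which the members named here exceeded except Ebp, as did Dhcr7 at 0.47 and Fdps at 0.46. Other probe sets, not used for the counts, gave 1.01 for Idi1, which is past 2-fold, 0.30 for Lss, and 0.26 and 0.81 for Stard4. For Lss and Stard4, whether the spread was exceeded thus depends on the probe set. Mvk, at 0.433, had -0.38 with the floor of 177.4. The difference of the responses is by arithmetic also the change in the genotype difference, so the 2 readings share all 4 arrays.

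**Figure D4:**
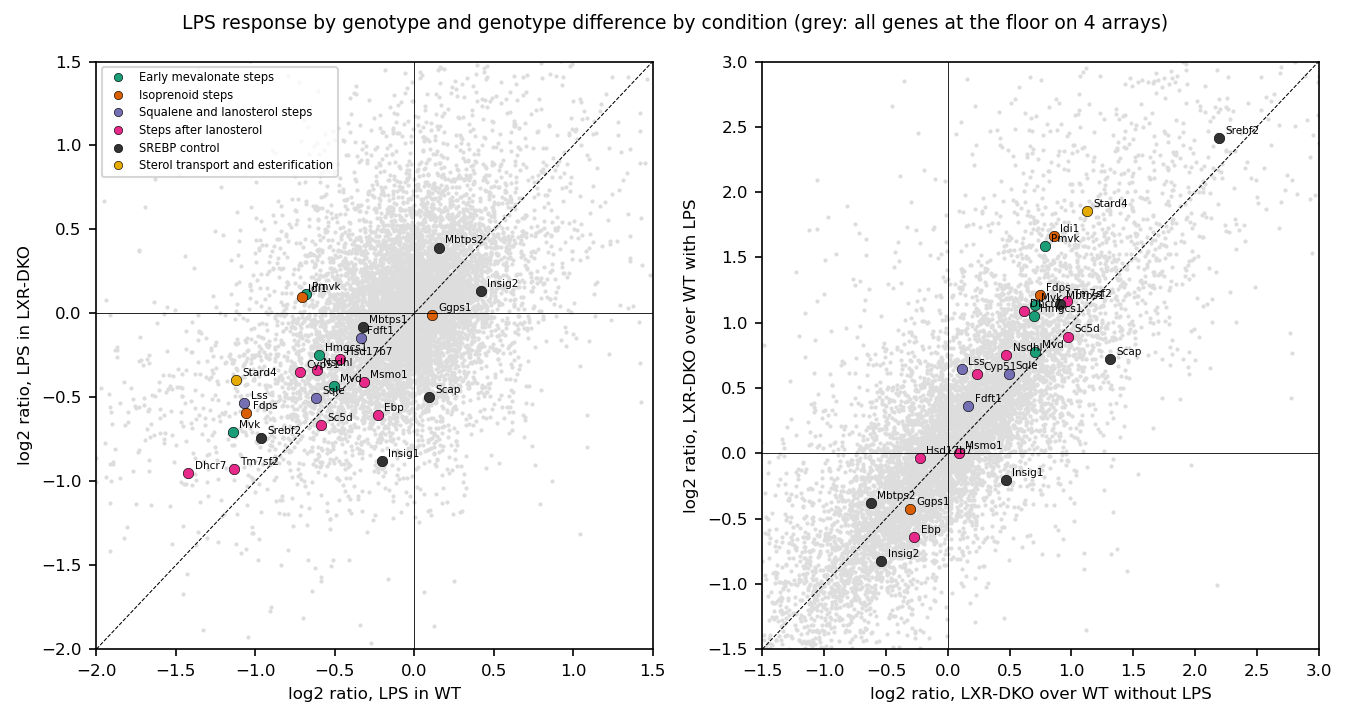
Log2 LPS ratio in WT against that in LXR-DKO (left), and log2 ratio of LXR-DKO over WT without against with LPS (right), for the members coloured by role and, in grey, for the genes that every array measured; the 2 axes of each panel share no array. Points above the dashed line of equality have a higher ratio in LXR-DKO (left) or with LPS (right); grey genes beyond the axes are not drawn. Idi1 and Pmvk lie above it, and Insig1 and Scap below.

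Other features of the cultures moved with these comparisons. Cell cycle genes were lower with LPS in WT, with 17 of 18 measured genes at least 2-fold lower, against 4.79% of all genes, and a median log2 ratio of -2.44. In LXR-DKO 2 of 19 were, against 1.82%, with a median of -0.59. The mitotic cyclin gene Ccnb2 had signals of 635.2 and 71.6 in WT cells and of 1362.8 and 853.2 in LXR-DKO cells. LXR-DKO exceeded WT by 2-fold or more for 6 of 19 cell cycle genes without LPS, against 12.7% of all genes, and for 17 of 18 with LPS, against 17.8%. The medians were 0.67 without LPS, near the members' 0.62, and 2.32 with LPS, against the members' 0.75. The part of cell division in the sterol gene differences was not tested.

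Markers of other cells also differed between the genotypes. The summed signal of 10 neutrophil markers was 9828.5 in WT control and 11702.4 in WT LPS, against 21410.3 and 20555.1 in LXR-DKO. Without LPS 6 of 10 exceeded WT by 2-fold or more, against 12.7% of all genes, and 1 was 2-fold lower, against 9.28%. That gene, Mmp8, made up 7882 and 9716.4 of the WT sums but had 3829.7 and 3769.1 in LXR-DKO. Ngp went the other way, with 17.5 and 23.2 in WT and 3361.7 and 2308.1 in LXR-DKO. For 11 mast cell, basophil and eosinophil markers the sums were 652.8 and 815.5 against 1980.8 and 3516.5, and for 9 B cell markers 2197.9 and 4015.7 against 3765.3 and 7479.5. The B cell sums mix opposite genes, since the adaptor gene Blnk made up 1686 and 3547.1 of them in WT and had 183.8 and 1324.1 in LXR-DKO, while the heavy chain gene Ighm had 162.5 and 84.2 in WT and 2911.2 and 4119.2 in LXR-DKO. Conventional DC markers summed to 22727.2 and 20829.8 in WT and to 42670.7 and 45139.4 in LXR-DKO, and 7 of 11 were 2-fold higher without LPS. The sums of 11 macrophage and monocyte markers were 31708.7 and 37118.9 against 47014.4 and 34869.6. Here too genes went both ways. Signals of C1qa, C1qb and C1qc, which encode a complement protein, lay between 0.8 and 108.4 in WT and between 2566.9 and 6280.6 in LXR-DKO, whereas Cd68 had 7043.9 and 8902.7 in WT against 2836.3 and 2139.2, and Mrc1 had 1939.9 and 285 against 378.9 and 149.3. In bulk RNA, more cells of a type and more RNA per cell cannot be told apart.

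The genotypes also differed in sex-linked genes, which were looked at after the values were seen. Xist, expressed from the inactive X chromosome of females, had signals of 30.8 and 22.7 in WT and of 2750 and 2090.4 in LXR-DKO. The Y-linked gene Eif2s3y had 736.6 and 721 in WT and 279.6 and 384.3 in LXR-DKO, and was thus not absent from the latter. Genotype, sex and cell type makeup cannot be told apart in the comparison of these cultures, which bears on all genotype differences of the members. The LXR-DKO cultures also differed from each other in such genes. The Y-linked gene Uty had 69.7 and 128.6 there, against 300.9 and 291.1 in WT. The LPS ratios in LXR-DKO and the difference of the responses therefore share this limit. Of the X-linked members, Nsdhl was higher and Ebp and Mbtps2 were lower in LXR-DKO, and the part of sex in these differences was not tested.

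The other genes regulated by SREBPs or involved in lipoprotein uptake followed the members in part. Their median log2 ratios for LPS were -0.59 in WT and -0.46 in LXR-DKO, near the members' -0.60 and -0.41. Between genotypes their medians were 0.41 without and 0.29 with LPS, against the members' 0.62 and 0.75. Of 13 measured genes of that list, 3 were at least 2-fold lower with LPS in WT and 0 higher, against 4.79% and 2.93% of all genes. In LXR-DKO without LPS 4 were 2-fold higher than in WT and 1 lower, against 12.7% and 9.28%, so that the 1 lower gene is near the share of all genes. Lbr, a nuclear envelope protein with the same reductase activity as Tm7sf2, had signals of 796.3 and 225.7 in WT cells and of 2594 and 1639 in LXR-DKO cells. It was 7.26-fold higher in LXR-DKO with LPS, more than any member. The fatty acid desaturase gene Fads2 stood at 290.5, 83, 1231.6 and 508.8, and Aacs, which makes acetoacetyl-CoA from ketone bodies, at 320.4, 128.1, 1148.4 and 623.2, both highest in LXR-DKO control and lowest in WT LPS. Mylip, an LXR target whose product removes lipoprotein receptors, had 476, 241.3, 373.6 and 490.1. Its log2 LPS ratio was -0.98 in WT and 0.39 in LXR-DKO. Relative to WT, Mylip in LXR-DKO was lower without LPS at -0.35 and higher with LPS at 1.02. Lrp1, a large endocytic receptor, went against the members at 1504.4, 1573, 198.5 and 467.3, 7.58-fold lower in LXR-DKO without LPS.

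The remaining neighbouring lists did not share the members' shift. The genes that degrade sterol-regulated proteins had medians of 0.10 and -0.05 for LPS in WT and LXR-DKO and of -0.31 and -0.33 for the genotype difference in control and LPS cultures. Rnf145, a sterol-sensing ubiquitin ligase, stood apart at 389.4 and 341 in WT and 1629.1 and 1361.6 in LXR-DKO. Erlin1, which binds cholesterol in the endoplasmic reticulum, was higher at 0.80 and 0.93. Genes of endosomal and membrane sterol transport had medians of -0.12 and -0.07 between genotypes, with 3 of 15 at least 2-fold lower in each condition, against 9.28% and 8.76% of all genes. The lysosomal lipase gene Lipa was 3.12-fold and 3.71-fold lower, the lysosomal cholesterol exporter gene Npc1 2.18-fold and 2.03-fold, and the cholesteryl ester hydrolase gene Nceh1 2.31-fold and 4.16-fold, whereas Gramd1a, which carries plasma membrane cholesterol inward, was 2.64-fold and 2.43-fold higher. Genes on other branches of the mevalonate pathway had medians of -0.12 without and 0.14 with LPS, and Nus1, which acts in dolichol synthesis, was 2.62-fold and 2.69-fold lower while Trit1, which prenylates tRNA, was 2.53-fold and 1.82-fold higher.

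**Figure D5:**
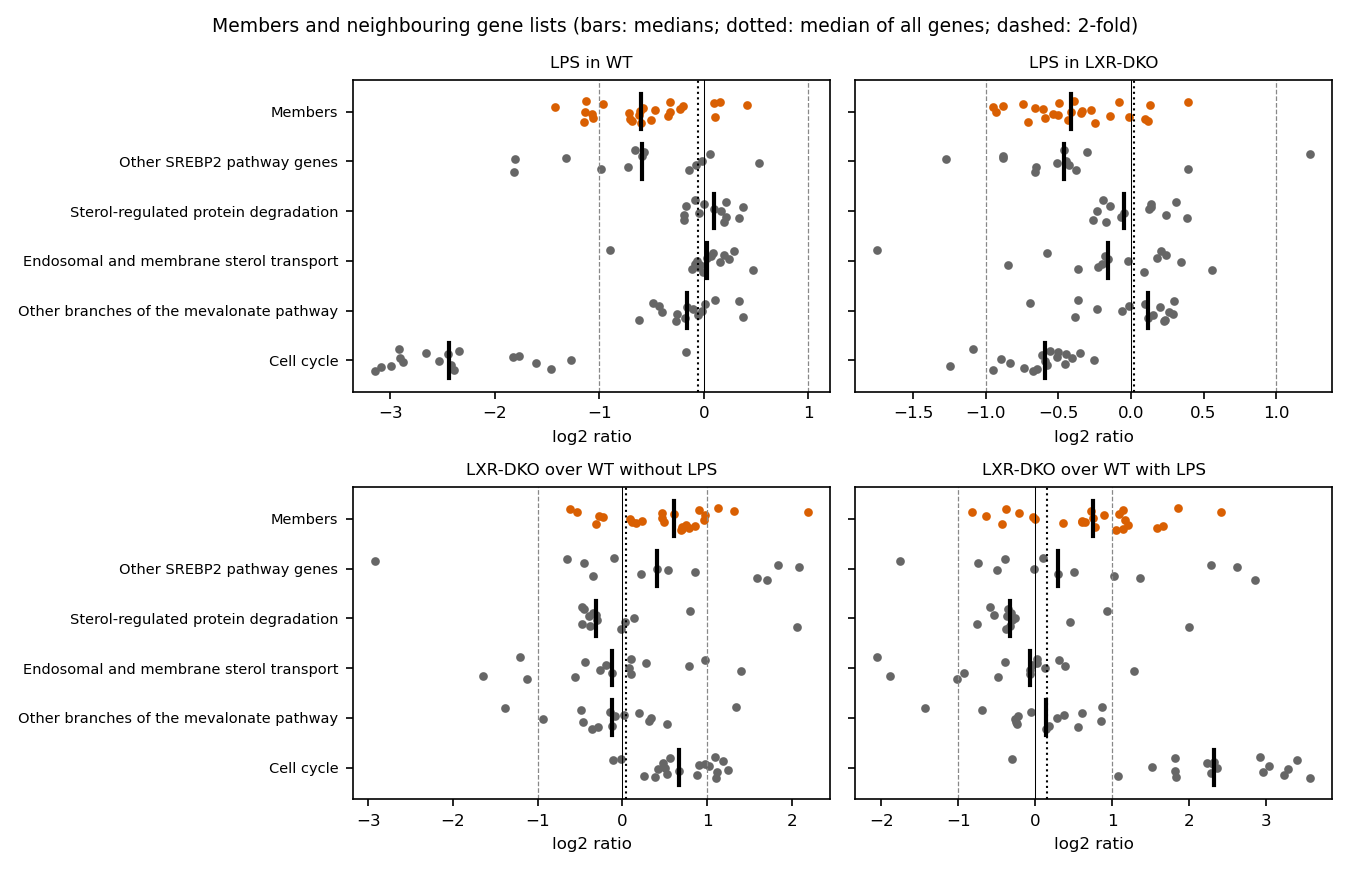
Log2 ratios of the members, of 4 neighbouring gene lists and of cell cycle genes in 4 comparisons, with 1 point per gene on 1 array pair and a bar at the median. The members' medians lie at -0.60, -0.41, 0.62 and 0.75, and those of protein degradation genes at 0.10, -0.05, -0.31 and -0.33, while cell cycle genes lie beyond the members for LPS in WT and for LXR-DKO over WT with LPS.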

How the data were processed

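Each of the 4 samples gave 1 single-colour oligonucleotide array, made from biotinylated cRNA after amplification, per the labels' protocols. MAS5 was used per the submitters' processing notes, with version and settings not given in the sources used here. The deposited intensity values are linear signals per probe set, which the authors had already scaled: the mean after leaving out 2% at each end was the same on every array. Of 45101 probe sets, 64 controls were left out. The platform annotation gave 1 symbol to 34945 of the others, several to 932 and none to 9160, and gene numbers of 34741 matched RefSeq (GRCm38.p6) with 0 symbols changed.

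Signals below the floor of 28.9 were set to it, a gene was measured where at least 1 array of the comparison reached the floor, and a log2 ratio of 1 (2-fold) was counted, over all genes. With 1 array per group no test was made. Counting was tested on simulated data with changes well past 2-fold in bright genes, so the simulation does not bear on ratios near the threshold. Analyses used Python 3.11.15, numpy 2.4.6 and pandas 2.3.3. The members, gene lists and settings were chosen with earlier results of these data known. All members are named, and of each other list up to 4 genes with the largest log2 ratio in a comparison described, except genes said to be chosen later and the DC markers used to check the cells. Outside this rule, Mmp8 and Cd68 are named because they went against other genes of their lists. Alternatives were 4 other scalings (75th percentile, quantile, median ratio, hybridisation controls), floors at the 25th (8.8) and 75th percentile (177.4), no floor with 16 added to each signal, the median over probe sets, and probe sets whose names carry no suffix.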

Additional observations from a re-analysis of the deposited data

Results flagged for a closer look

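Of the members, 4 had LPS ratios of opposite sign in the 2 genotypes. Pmvk had -0.68 in WT but 0.12 in LXR-DKO, a difference of 0.80 on the log2 scale, and Idi1 at -0.71 and 0.10, also a difference of 0.80. Ggps1 differed by -0.12 and Scap by -0.59, with 0.09 in WT and -0.50 in LXR-DKO, although hybridisation control scaling gave Scap -0.026 in WT, so that its signs no longer opposed. The genotype difference changed sign with LPS for Insig1, by -0.68, and for Msmo1, by -0.09. With 1 array per group none of these differences was tested, and those of Ggps1 and Msmo1 are smaller than the spread of 0.43 between probe sets of a gene. For Idi1, the median of its probe sets was -0.01 in LXR-DKO.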

How the results depend on the processing

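No paired analysis was possible because each group has 1 array, and for the same reason none could be left out. Of 90 list results under 9 other settings, 86 kept their direction and stayed within 1.5 times the count or within the spread between probe sets. This total is in part a weak check. The counts for LPS in LXR-DKO and for the difference of the responses were 0 in every setting. The median difference of the responses, 0.22, was smaller than its spread of 0.43, and was 0.12 at the same 75th percentile. The results that moved were counts of members. With LPS in WT, 2 members were 2-fold lower at the same 75th percentile and 3 after quantile normalization, against 6. In LXR-DKO over WT, 8 were 2-fold higher under hybridisation control scaling without LPS, against 3, and 4 at the same 75th percentile with LPS, against 10. Of 170 values for members past 2-fold, 142 stayed past it and 0 changed sign. Srebf2 in both genotype comparisons, Scap without LPS, and Idi1 and Stard4 with LPS were past 2-fold in all 10 settings, as was Dhcr7 for LPS in WT. Among the other genes named, the difference of the LPS responses of C1qb reversed to -0.62 with the floor at the 75th percentile, against 1.29. All 25 members reached the floor of 28.9 on every array, but this floor is the median signal and not a detection call. With the floor at 177.4, 4 members were 2-fold lower with LPS in WT, against 6. For Tm7sf2 that floor gave -0.81 for LPS in WT, against -1.13. Its difference of the LPS responses was then -0.12, against 0.21.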
